A study of Mus musculus with 7 samples.

Results

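The growth hormone and insulin-like growth factor (IGF) axis of the liver was followed through 10 of the 56691 genes in the count table. They were chosen by name, with earlier results of these data known: the growth hormone receptor Ghr, the transcription factors Stat5a and Stat5b, the feedback inhibitor Socs2, the hormone gene Igf1, Igfals, which encodes the acid-labile subunit, and the IGF binding protein genes Igfbp1, Igfbp2, Igfbp3 and Igfbp4. Growth hormone from the pituitary binds its receptor on hepatocytes, the attached kinase JAK2 phosphorylates STAT5, and STAT5 then switches on genes such as Igf1, Igfals and Socs2. The IGF1 protein made in liver circulates bound to binding proteins, mostly in a complex with IGFBP3 or IGFBP5 and the acid-labile subunit, which keeps it in the blood. In severe inflammation the liver can lose its response to growth hormone, a state called growth hormone resistance, and these genes serve as its readout at the RNA level.

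Livers came from 4 control mice and 3 mice given lipopolysaccharide (LPS), the endotoxin of Gram-negative bacteria. All were male C57BL/6J mice, an inbred strain, bought at 8 weeks of age and housed for 2 weeks. The LPS group had an intraperitoneal injection at 10 mg/kg and was killed 24 h later. What the control mice received in its place is not given in the sources used here, and 6 mice per group were in the study as a whole. Polyadenylated RNA of whole liver was sequenced with strand information kept, and reads were counted per gene. Total counts were 14991022, 15096573, 15721944 and 18584140 in control mice 1 to 4, and 20500391, 17095607 and 17821331 in LPS mice 1 to 3. Levels are given in CPM, counts relative to the scaled size of the library. The detection floor was set at 3 counts, or 0.138 CPM in LPS mouse 1 and 0.212 CPM in control mouse 1, which covers counting error only. Plasma growth hormone and IGF1 were not analysed here.

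The libraries differed in ways that the groups do not fully describe. Mitochondrial genes took 23.7%, 14.6%, 7.48% and 8.96% of the counts in control mice 1 to 4, and 6.45%, 3.83% and 3.94% in LPS mice 1 to 3. LPS mice 2 and 3 were closer to each other than any other pair within a group. In 1729 well-counted genes (summed counts of the pair above 2000) their log2 ratio had an SD of 0.10, while the other pairs gave 0.29 to 0.58. Counting error alone would give 0.046, so these libraries differed by more than that, and they were kept as 2 samples as labelled. Whether they came from separate animals could not be checked here. A narrow spread within the LPS group rests in part on this pair.

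Most of the axis was lower after LPS. Of the 10 genes, 9 passed the test at an adjusted p below 0.05, against 26.3% of the 13683 genes tested. Lower levels after LPS were found for 8 of the 10, against 13.0% of all genes, and 1 of the 10, Igfbp4, was higher, against 13.3%. The gene that did not pass was Igfbp1. In 9 of the 10 genes no LPS mouse overlapped a control mouse, which held for 35.4% of all genes. The median log2 fold change of the 10 genes was -1.10, beside -0.01 over all genes tested. All 10 had enough counts to be tested. Together they took 0.247% to 0.322% of all counts in the control group and 0.176% to 0.196% in the LPS group. The scaling between libraries moves every value a little: with total counts in place of scaling factors the log2 fold changes of all genes shifted by a median of -0.12. The calls over all genes then went from 1824 higher and 1773 lower to 1350 higher and 2055 lower.

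**Figure D1:**
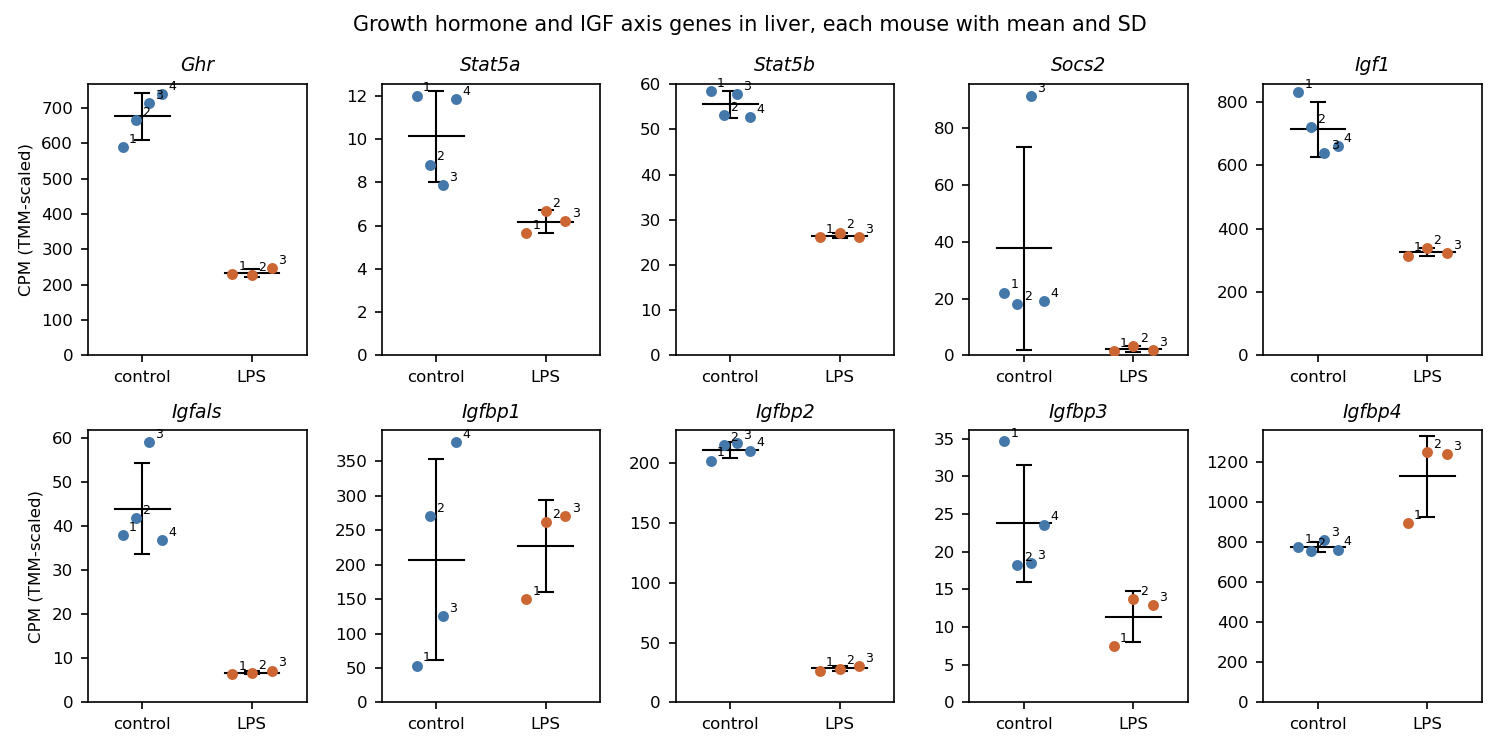
Level of each of the 10 axis genes in CPM (y axis, linear, from 0) in control and LPS mice. Points are mice with their replicate number, the long bar is the group mean and the error bar the SD (n = 4 control and n = 3 LPS mice). In 8 panels every LPS mouse lies below every control mouse, in Igfbp4 every LPS mouse lies above, and in Igfbp1 the groups overlap.

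The receptor came first in the cascade and fell clearly. Ghr (ENSMUSG00000055737) had 589, 667, 715 and 739 CPM in control mice 1 to 4, and 230, 226 and 247 CPM in LPS mice 1 to 3. The LPS mice were tightly grouped at about 34.6% of the control mean, far below the lowest control mouse. The log2 fold change was -1.53 (SE 0.15, adjusted p = 9.12e-06). In the mouse the same gene also gives rise to the circulating growth hormone binding protein by alternative splicing, and counts per gene do not separate the forms. In bulk liver a fall of this kind cannot tell fewer cells of a type from less RNA per cell. The related prolactin receptor Prlr, which also signals through JAK2 and STAT5, averaged 85.3 ± 5.3 CPM in the 4 control mice and 14.1 ± 3.1 CPM in the 3 LPS mice (SD over mice), and fell by 2.60 on the log2 scale (SE 0.17, adjusted p = 3.67e-07). No difference passed the test for Jak2, the kinase of both receptors. It had 14.0 ± 2.6 CPM in control mice and 13.8 ± 2.3 CPM in LPS mice, with overlapping groups (log2 fold change -0.03, SE 0.20, 95% interval -0.45 to 0.40, adjusted p = 0.941).

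Both STAT5 genes were lower after LPS, with different certainty. Stat5b (ENSMUSG00000020919), the form on which most growth hormone action in male liver depends, had 58.5, 53.1, 57.7 and 52.8 CPM in control mice 1 to 4, and 26.2, 27.2 and 26.1 CPM in LPS mice 1 to 3. Its spread was small in both groups, and the LPS mean was 47.7% of the control mean (log2 fold change -1.07, SE 0.13, adjusted p = 6.56e-05). Stat5a (ENSMUSG00000004043) had 12.0, 8.83, 7.87 and 11.8 CPM in control mice 1 to 4, and 5.66, 6.69 and 6.22 CPM in LPS mice 1 to 3. The groups did not overlap, but the highest LPS mouse was close to the lowest control mouse. Its change of -0.71 on the log2 scale (SE 0.22, adjusted p = 0.0316) no longer passed in the fits without control mouse 1 or 4 or without LPS mouse 1, 2 or 3, in which it was -0.63, -0.63, -0.65, -0.77 and -0.72. Within each mouse the log2 ratio of Stat5a to Stat5b was -2.48 ± 0.32 in control and -2.10 ± 0.10 in LPS mice, with overlap, so unequal falls were not resolved. The 2 genes have nearly the same coding sequence, and how reads that fit both were counted is not given in the sources used here, so the division of counts between them is uncertain. Stat3, the neighbour of both on the chromosome and the main STAT protein of the interleukin-6 response, went the other way. It had 36.1, 55.2, 66.8 and 52.9 CPM in control mice and 154, 168 and 177 CPM in LPS mice, and rose by 1.66 on the log2 scale (SE 0.18, adjusted p = 2.98e-05).

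The largest fall among the 10 genes was in Socs2, whose protein binds the activated receptor and ends its signal, and whose transcription STAT5 drives. Socs2 (ENSMUSG00000020027) had 22.1, 18.2, 91.2 and 19.1 CPM in control mice 1 to 4, and 1.43, 3.35 and 1.93 CPM in LPS mice 1 to 3, from 313, 288, 1494 and 395 counts and from 31, 52 and 31 counts. Control mouse 3 stood far above the other control mice, and all LPS mice were far below every control mouse. The log2 fold change was -4.10 (SE 0.63, adjusted p = 0.000392). Without control mouse 3 it was -3.17 and still passed, and over the fits without each mouse it ranged from -4.49 to -3.17. Relative to the receptor in the same mouse, the log2 ratio of Socs2 to Ghr went from -4.54 ± 1.08 to -6.81 ± 0.65 without overlap of the groups, so there was less Socs2 RNA per unit of Ghr RNA after LPS.

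Control mouse 3 was also apart in some other genes that growth hormone is known to regulate in liver, though not in all of them. Cish, another STAT5-driven feedback gene, had 11, 16, 699 and 20 counts in control mice 1 to 4, and 69, 22 and 40 counts in LPS mice 1 to 3. In CPM these were 0.777, 1.01, 42.7 and 0.967, and 3.18, 1.42 and 2.49. The result therefore hung on control mouse 3: its change of -2.25 on the log2 scale (SE 1.20, adjusted p = 0.196) did not pass the test, and without that mouse it turned to 1.36, which did not pass either. With no filter on low counts, -2.24 passed, although control mouse 3 was the only control mouse above any LPS mouse. Onecut1 and Foxa1, transcription factor genes picked here after their values were seen, were high in the same mouse. Onecut1 had 25.8 CPM there and between 3.03 and 7.49 CPM in the other control mice, while Foxa1 had 48.2 CPM and between 13.2 and 16.0 CPM. Bcl6, which encodes a repressor that growth hormone pulses turn down, was low in control mouse 3, with 29.8 CPM against 86.6 to 102 CPM in the other control mice. Hes6 and Nr1i3, also transcription factor genes that growth hormone regulates, did not set this mouse apart. They had 30.2 and 67.5 CPM there, and 25.8 to 35.5 and 65.1 to 83.5 CPM in the other control mice. The origin of the pattern in control mouse 3 was not tested.

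**Figure D2:**
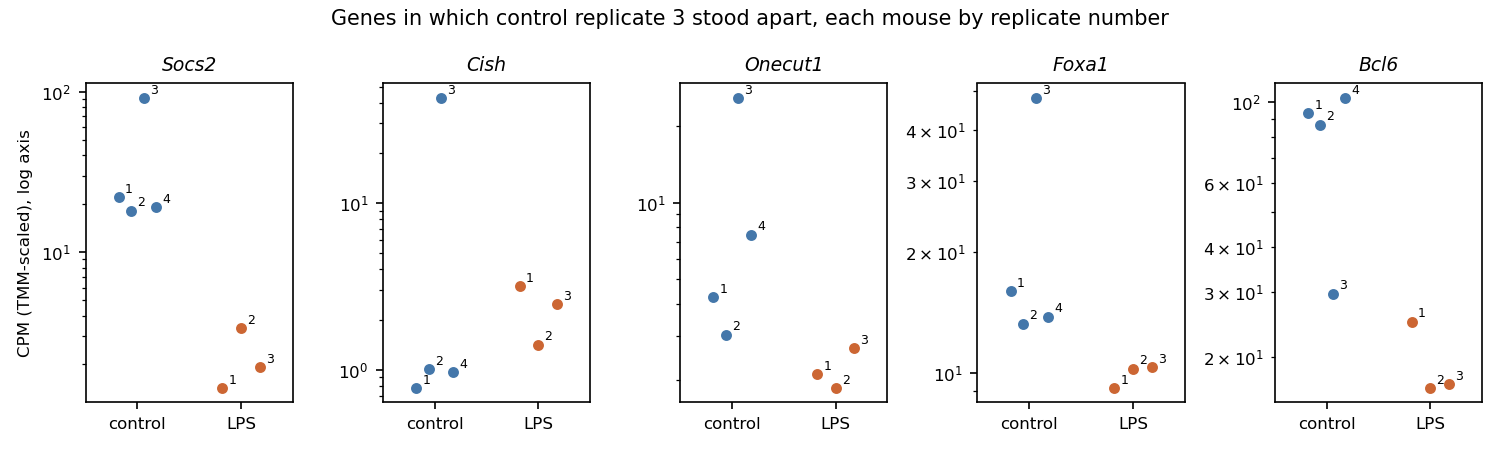
Level in CPM (y axis, log scale, a different range in each panel) of Socs2, Cish, Onecut1, Foxa1 and Bcl6 in control and LPS mice, each point a mouse with its replicate number. Control mouse 3 is highest among the control mice in the first 4 panels (91.2 CPM for Socs2) and lowest in Bcl6 (29.8 CPM).

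Of other genes that can restrain receptor signalling, some were higher after LPS and some did not pass the test. Socs3, which inflammatory cytokines induce through STAT3 and whose protein can block growth hormone signalling, had 2.69, 9.83, 8.79 and 6.77 CPM in control mice 1 to 4, and 40.1, 54.0 and 63.7 CPM in LPS mice 1 to 3. All LPS mice were above all control mice (log2 fold change 2.90, SE 0.32, adjusted p = 2.61e-05). Within a mouse, the log2 ratio of Socs3 to Socs2 went from -2.20 ± 1.20 in control to 4.62 ± 0.54 in LPS mice, a difference of 6.82 without overlap. Socs1 was too low to be tested, with 3, 4, 0 and 1 counts in control mice and 16, 2 and 14 counts in LPS mice. Ptpn1 and Ptpn2 encode phosphatases that act on JAK2 and on STAT5. On the log2 scale Ptpn1 rose by 1.41 (SE 0.17, adjusted p = 5.65e-05) and Ptpn2, named after its values were seen, by 1.14 (SE 0.15, adjusted p = 9.45e-05). Of 37 genes listed for growth hormone receptor signalling beside the axis genes, 34 were tested, 10 were higher and 3 lower, beside 13.3% and 13.0% of all genes, and the median log2 fold change was 0.12. Of the higher ones, Sirpa, Ptpn6, Lyn and Ptpn1 were highest in LPS mouse 1, as was the macrophage marker sum given below. Shc1, Grb2, Ptpn2, Socs3, Stat3 and Lepr were not. The part of cell makeup in this count was not tested. Without each mouse the higher genes numbered 8 to 11 and the lower ones stayed at 3, a share below that of all genes. These 3 were Prlr, the insulin receptor substrate Irs1 (-1.72, SE 0.37, adjusted p = 0.00443) and the adaptor Grb14 (-0.72, SE 0.15, adjusted p = 0.00358). The leptin receptor Lepr was among the higher genes at 0.90 (SE 0.30, adjusted p = 0.0424), a call lost with total counts (0.76) and without any of control mice 1, 2 and 3 or LPS mice 2 and 3, where the value lay between 0.73 and 0.94. Gh itself had 0 counts in every mouse.

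The output of the pathway fell with the receptor. Igf1 (ENSMUSG00000020053) had 833, 722, 638 and 662 CPM in control mice 1 to 4, and 315, 339 and 322 CPM in LPS mice 1 to 3. LPS mice were at 45.6% of the control mean, and even the highest of them was far below the lowest control mouse (log2 fold change -1.13, SE 0.15, adjusted p = 0.000139). Igfals (ENSMUSG00000046070), whose product locks IGF1 into its long-lived blood complex, had 38.0, 41.8, 59.0 and 36.8 CPM in control mice 1 to 4, and 6.44, 6.63 and 7.21 CPM in LPS mice 1 to 3. Control mouse 3 was the highest control for Igfals, but it was the lowest for Igf1. The LPS mice differed from each other by less than 1 CPM in Igfals. Igfals fell to 15.4% of the control mean (log2 fold change -2.70, SE 0.20, adjusted p = 8.75e-07). In each mouse Igfals could be set against Igf1: the log2 ratio went from -4.04 ± 0.43 to -5.59 ± 0.10, a difference of -1.55 with no overlap. Igf2, a fetal growth factor in mouse liver, had 0 counts in all 7 mice.

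Among the binding protein genes, Igfbp2 had the clearest result of the whole axis. Igfbp2 (ENSMUSG00000039323) had 202, 215, 217 and 211 CPM in control mice 1 to 4, and 26.7, 28.2 and 30.6 CPM in LPS mice 1 to 3. The coefficient of variation was 3.13% in control mice, and LPS mice kept 13.5% of the control mean (log2 fold change -2.89, SE 0.14, adjusted p = 3.02e-08). By p-value it ranked 33 of the 13683 genes tested, ahead of Igfals at 134 and Ghr at 302. Whether this fall belongs to growth hormone resistance was not tested. Igfbp3 (ENSMUSG00000020427), the main carrier of IGF1 in blood, had 34.7, 18.2, 18.4 and 23.6 CPM in control mice 1 to 4, and 7.50, 13.7 and 12.9 CPM in LPS mice 1 to 3. Control mouse 1 was highest and LPS mouse 1 lowest, with a gap between the groups (log2 fold change -1.07, SE 0.27, adjusted p = 0.0106). In mouse liver Igfbp3 is known to be made largely by cells other than hepatocytes.

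Igfbp4 was the only axis gene to rise. Igfbp4 (ENSMUSG00000017493), whose product binds IGF1 and holds back its action until it is cleaved, had 773, 756, 808 and 761 CPM in control mice 1 to 4, and 895, 1246 and 1238 CPM in LPS mice 1 to 3. LPS mouse 1 lay only a little above the highest control mouse, while LPS mice 2 and 3, the pair that resembled each other, were well above it. The rise of 0.54 on the log2 scale (SE 0.16, adjusted p = 0.0249) lost its call with total counts (0.41). It was also lost without control mouse 2 or 4 or LPS mouse 2 or 3, at 0.51, 0.53, 0.47 and 0.47, and with LPS mice 2 and 3 summed into 1 sample, at 0.47.

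Igfbp1, which insulin represses and fasting and stress hormones induce within hours, varied more than any other axis gene but Socs2 among the control mice. Igfbp1 (ENSMUSG00000020429) had 53.5, 271, 125 and 379 CPM in control mice 1 to 4, and 150, 262 and 271 CPM in LPS mice 1 to 3. The LPS mice lay within the control range, and the coefficient of variation was 70.4% in control mice. The log2 fold change was 0.13 (SE 0.48, adjusted p = 0.872) with a 95% interval from -0.90 to 1.17, a width that leaves a moderate fall or rise unresolved at this number of mice. The value moved both ways between alternatives. It was 0.85 with the replicate number as a block, where it passed, and 0.59 without control mouse 4, where it did not. The sign turned to -0.055 with total counts and to -0.19, -0.048 and -0.0085 without control mouse 1, control mouse 3 and LPS mouse 3. Igfbp1 and Igfbp3 are neighbours on the chromosome, and the log2 ratio of Igfbp1 to Igfbp3 within a mouse was 2.82 ± 1.57 in control mice and 4.32 ± 0.07 in LPS mice. The LPS mice were alike and above all control mice, while control mouse 1, at 0.62, was far below the rest.

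Genes that share the insulin control of Igfbp1 were set beside it. Pck1, a gluconeogenic enzyme gene, had 996, 1209, 1309 and 2107 CPM in control mice 1 to 4, and 2553, 3303 and 3316 CPM in LPS mice 1 to 3. Irs2, an insulin receptor substrate gene named after its values were seen, had 11.9, 19.1, 24.0 and 39.0 CPM and 32.3, 41.1 and 40.3 CPM. In all of Igfbp1, Pck1 and Irs2 control mouse 1 was the lowest control mouse and control mouse 4 the highest. Control mouse 2 was above control mouse 3 in Igfbp1 but below it in Pck1 and Irs2. Pck1 passed the test (log2 fold change 1.12, SE 0.24, adjusted p = 0.00401), as did Foxo1, the transcription factor that insulin restrains (0.99, SE 0.20, adjusted p = 0.00286), while Irs2 did not (0.68, SE 0.29, adjusted p = 0.109). Irs2 passed without control mouse 4, at 1.04, with no filter on low counts, at 0.69, and with the replicate number as a block, at 1.09. Pdk4, a FOXO1 target that spares glucose, fell with overlapping groups (-1.26, SE 0.36, adjusted p = 0.0218). It had 21.6, 24.3, 6.35 and 21.3 CPM in control mice 1 to 4, with other lowest and highest mice than in Igfbp1, Pck1 and Irs2. Its call was lost without control mouse 2 or 4 or any single LPS mouse, and with the replicate number as a block, at -1.01. With each of the 7 mice left out its log2 fold change lay between -1.54 and -1.11. Feeding state, blood glucose and insulin were not analysed here.

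The rest of the IGF and insulin system comes from a list of 31 genes. Of these, 22 were tested, 2 were higher and 4 lower, beside 13.3% and 13.0% of all genes, with a median log2 fold change of 0.20. The 4 became 1 without control mouse 1 and 0 without control mouse 2, LPS mouse 2 or LPS mouse 3, and the 2 became 5 without control mouse 3, so neither count says anything particular of the list. The receptors gave no call: Igf1r had 60, 54, 25 and 58 counts in control and 50, 25 and 29 counts in LPS mice (log2 fold change -0.64, adjusted p = 0.279), Insr had 120 ± 8 and 141 ± 6 CPM (0.23, adjusted p = 0.210), and Igf2r had 21.5 ± 3.6 and 29.2 ± 1.8 CPM (0.44, adjusted p = 0.062). In Igf2r and Insr the groups did not overlap, and Igf2r passed without control mouse 3 (0.53). The protease gene Htra1, which cleaves binding proteins, did not pass at -0.77 (SE 0.47, adjusted p = 0.261). Without each mouse its value ranged from -1.46 to -0.45. Pappa2, whose protease frees IGF1 from IGFBP3 and IGFBP5, had 0, 1, 0 and 0 counts in control mice and 15, 8 and 3 counts in LPS mice, and Stc2, its inhibitor, had 23, 1, 1 and 3 counts and 17, 0 and 3 counts. Both were too low to be tested. Igfbpl1 and Insrr had 0 counts in every mouse, like Igf2.

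Of the remaining binding protein genes, Igfbp5 is the neighbour of Igfbp2 on the chromosome. Igfbp5 had 50.5, 19.4, 8.67 and 11.1 CPM in control mice 1 to 4, and 10.6, 4.63 and 4.29 CPM in LPS mice 1 to 3. Its groups overlapped, and control mouse 1 was far above the rest, unlike the narrow control range of Igfbp2. Igfbp6 had 7.21, 2.02, 1.16 and 1.40 CPM and 1.06, 0.322 and 0.622 CPM, and Igfbp7 had 79.9, 40.3, 22.3 and 32.3 CPM and 27.8, 16.3 and 19.6 CPM. Control mouse 1 was again highest in both. The log2 fold changes were -1.76 for Igfbp5 (SE 0.55, adjusted p = 0.0321), -2.09 for Igfbp6 (SE 0.71, adjusted p = 0.0459) and -1.03 for Igfbp7 (SE 0.35, adjusted p = 0.0486). Without control mouse 1 they were -0.99, -1.16 and -0.57 and no longer passed, and the calls were also lost without control mouse 2, LPS mouse 2 or LPS mouse 3. By DESeq2 Igfbp5 and Igfbp7 did not pass, and Igfbp7 was also lost with genes over 1% of counts left out of the library size and with at least 10 counts asked of every mouse. These genes are known from endothelial, stellate and bile duct cells, whose markers are given next.

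Marker genes of the cell types of liver were read in the same libraries, in which 13.3% of all genes were higher and 13.0% lower. The albumin gene Alb belongs to the hepatocyte list of 15 tested genes, with 4 higher and 7 lower, a median log2 fold change of -0.02 over members that went both ways, and summed levels of 79947 to 102318 CPM in control and 69156 to 83655 CPM in LPS mice, so the label liver was met in all 7 mice. Some members, all but Alb and Pck1 named after their values were seen, show how mixed this list was: the apolipoprotein gene Apoa2 fell by 1.71 (SE 0.28, adjusted p = 0.000737), the transthyretin gene Ttr by 1.23 (SE 0.18, adjusted p = 0.000254), Alb by 0.93 (SE 0.24, adjusted p = 0.0137) and Apoa1 by 0.70 (SE 0.20, adjusted p = 0.0231) on the log2 scale. The fibrinogen gene Fgb, which the acute phase response induces, rose from 5193 to 25837 CPM in the mean and so held up the sum. The other 3 called higher were Tat, an amino acid enzyme gene (1.40, SE 0.26, adjusted p = 0.00166), Pck1 (1.12) and Hnf4a (0.74). The call was lost for Alb without LPS mouse 2 or 3, at -0.93 in both, and for Apoa1 without any single LPS mouse, at -0.78 to -0.57. The 14 stellate cell and fibroblast markers, Dcn among them, summed to 662, 480, 291 and 472 CPM in control mice 1 to 4, and 441, 349 and 332 CPM in LPS mice 1 to 3, with 1 gene higher and 5 lower. The 8 cholangiocyte markers, Spp1 among them, summed to 292, 133, 97.9 and 144 CPM and to 155, 191 and 182 CPM, with 1 gene higher and 0 lower. Control mouse 1 was thus highest in both lists, as it was in Igfbp3, Igfbp5, Igfbp6 and Igfbp7, and control mouse 3 was lowest in both. The 15 endothelial markers, Fcgr2b among them, summed to 230, 275, 170 and 214 CPM and to 269, 165 and 160 CPM, with 2 higher and 2 lower. Kupffer cell and macrophage markers summed to between 155 and 252 CPM in control mice and to 889, 272 and 283 CPM in LPS mice 1 to 3, with 7 of 14 higher and 1 lower. Marco, a scavenger receptor gene, made up a large part of the sum in LPS mouse 1 and a smaller one in LPS mice 2 and 3, with 3.68 CPM in the mean of control mice and 409, 66.4 and 65.5 CPM in LPS mice 1 to 3. The lower gene was Clec4f, a marker of resident Kupffer cells that was named after its values were seen (log2 fold change -2.13, SE 0.41, adjusted p = 0.00216), so the sum does not stand for all cells of this kind. Clec4f had 24.1, 5.47 and 7.28 CPM in LPS mice 1 to 3, and its log2 fold change ranged from -3.09 to -1.78 without each mouse. LPS mouse 1 therefore carried the most macrophage and endothelial marker RNA of the LPS group. It was also the highest of that group in the stellate cell, neutrophil and erythroid sums, and the lowest in the hepatocyte and cholangiocyte sums. LPS mouse 1 was the lowest of that group in 8 of the 10 axis genes, all but Ghr and Stat5b. Some of these gaps were small, as in Igfals with 6.44 CPM against 6.63 and 7.21 CPM. Neutrophil markers, S100a9 among them, summed to between 2.32 and 5.23 CPM in control and between 163 and 224 CPM in LPS mice, with 9 of 9 tested genes higher, although Ly6g, their defining marker, had 0 counts in all control mice and in LPS mouse 2. Of 6 tested lymphocyte markers 3 were lower and 1 higher, with a median log2 fold change of -2.58. The higher one was Gzma, a granule protease gene of cytotoxic cells, at 3.20 (SE 0.48, adjusted p = 0.000331), against the rest of the list. Of 5 erythroid markers 4 were lower. Hbb-bs, 1 of these, had overlapping groups (-1.29, SE 0.44, adjusted p = 0.0468) and lost its call by DESeq2, with at least 10 counts asked of every mouse, and without control mouse 1, 2 or 3 or LPS mouse 2 or 3. It had 67.1, 16.3 and 18.8 CPM in LPS mice 1 to 3, and its log2 fold change ranged from -2.25 to -0.96 without each mouse. With mitochondrial genes left out of the counts, 9 axis genes passed, 8 lower and 1 higher, the same numbers as in the main test. Any other part of the mitochondrial share in the results for the axis genes, and the part of cell makeup, was not tested.

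Genes downstream of growth hormone with a sex bias gave the widest view of the pathway. Male mice secrete growth hormone in pulses, which keep a set of male-biased liver genes on and female-biased genes off through STAT5B. Of 22 male-biased genes listed, 22 were tested, 17 were lower and 2 higher, beside 13.0% and 13.3% of all genes, and the median log2 fold change was -1.10. The 17 include Bcl6, which growth hormone pulses turn down, so not every listed gene is one that they keep on. Hsd3b5, a steroid dehydrogenase gene, had 243, 282, 377 and 320 CPM in control mice 1 to 4, and 2.12, 0.515 and 1.24 CPM in LPS mice 1 to 3. That is a nearly complete loss, at a log2 value of -7.82 (SE 0.37, adjusted p = 2.30e-08). The organic anion transporter gene Slco1a1 fell by 4.29 (SE 0.20, adjusted p = 1.69e-08) and the selenium binding protein gene Selenbp2 by 3.18 on the log2 scale (SE 0.22, adjusted p = 4.62e-07). The fatty acid elongase gene Elovl3, named after its values were seen, fell from 754 ± 72 CPM to 179 ± 11 CPM. The 2 that rose were low in control mice. Gstp2 went from 1.21 ± 0.43 to 4.55 ± 0.98 CPM (log2 fold change 1.91, SE 0.37), while Moxd1 had 0, 1, 0 and 0 counts in control mice and 16, 122 and 77 counts in LPS mice, too few in control mice for a firm fold. Hsd3b5, Gstp2 and Selenbp2 have close paralogs, as do the Mup and Cyp4a12 genes of the list, so the division of reads within their families is uncertain. Members of 1 family do not count as independent results.

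Of 29 female-biased genes, 15 were tested, 6 were higher and 3 lower, beside 13.3% and 13.0% of all genes, with a median log2 fold change of 0.50. Without each mouse the higher ones stayed at 6, and the lower ones numbered 1 to 3. The lower ones numbered 5 by DESeq2 and 4 with no filter on low counts. Cyp17a1, a steroid hydroxylase gene, had 1.34, 1.20, 0.855 and 1.40 CPM in control mice 1 to 4, and 187, 248 and 252 CPM in LPS mice 1 to 3. This was a 189-fold difference (log2 fold change 7.56, SE 0.21, adjusted p = 2.49e-10). The fatty acid transporter gene Cd36 rose by 2.59 (SE 0.15, adjusted p = 1.12e-07) and Cyp2b10, a drug-metabolizing enzyme gene, by 3.07 (SE 0.37, adjusted p = 5.73e-05) on the log2 scale. Cyp4a14, a fatty acid hydroxylase gene named after its values were seen, rose from 51.4 ± 28.9 to 334 ± 60.5 CPM. Not all female-biased genes went up: the peroxisomal transporter gene Abcd2 fell by 2.88 (SE 0.29, adjusted p = 1.29e-05), Acot4 by 0.82 (SE 0.20, adjusted p = 0.00801) and Cyp2a4 by 3.15 (SE 0.96, adjusted p = 0.0291). Cyp2a4 rested on 41, 10, 39 and 12 counts and on 9, 1 and 0 counts, and its call was lost without control mouse 1 or 3 or LPS mouse 2 or 3, at -2.72, -2.90, -2.82 and -2.64. Over the fits without each mouse its value ranged from -5.36 to -2.64. Acot4 lost its call without LPS mouse 3 (-0.71). The markedly female-specific genes Cyp2b13, Cyp3a16, Cyp3a41a, Cyp3a41b, Cyp3a44 and Sult3a1 had 0 counts in all 7 mice. Many genes of both lists also answer to other nuclear receptors and to inflammation, so the lists are not specific to growth hormone.

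Transcription factor genes that growth hormone regulates in liver moved in both directions. Of 18 listed, 17 were tested, 4 were higher and 7 lower, beside 13.3% and 13.0% of all genes, with a median log2 fold change of -0.28. The 7 became 4, 4 and 3 without LPS mouse 1, 2 and 3, and the 4 numbered 3 to 6 over the fits without each mouse. Hes6 fell from 31.7 ± 4.7 CPM to 11.2 ± 1.9 CPM (log2 fold change -1.50, SE 0.18, adjusted p = 5.98e-05), and Nr1i3, the nuclear receptor CAR, from 74.3 ± 9.3 to 41.1 ± 1.9 CPM (-0.85, SE 0.14, adjusted p = 0.000807). Bcl6, a male-biased gene that STAT5 represses, fell 4.01-fold (adjusted p = 0.001), to between 16.4 and 25 CPM in LPS mice. Control mouse 3, at 29.8 CPM, lay near the LPS mice. Tox, a female-biased gene, rose by 1.68 (SE 0.38, adjusted p = 0.00548), Cebpb, which the acute phase response induces, by 0.92 (SE 0.19, adjusted p = 0.00299) and Hnf4a, a master regulator of hepatocyte genes named after its values were seen, by 0.74 (SE 0.18, adjusted p = 0.00961). Hnf4a lost its call without LPS mouse 2 (0.66) or LPS mouse 3 (0.69). Onecut1 and Foxa1 were lower at -2.19 (SE 0.63, adjusted p = 0.0226) and -1.20 (SE 0.40, adjusted p = 0.0440). Without control mouse 3 these were -1.16 and -0.54 and still passed, whereas Foxa1 did not pass by DESeq2, and without any single LPS mouse neither passed, at -2.34 to -2.08 and at -1.23 to -1.14.

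Genes with the most similar pattern over the 7 mice were sought among the 7068 genes averaging 10 CPM or more, by the root mean square difference of log2 CPM after each gene was centred on its control mean. Nearest to Ghr were Gm52969, Lactb2 and Hnmt, with differences of 0.11, 0.11 and 0.12. Nearest to Igf1 were Itm2b, Slc35d2 and Ccs (0.07, 0.09 and 0.09), and nearest to Igfals were Ugt2a3, Sucnr1 and Cyp2c70 (0.14, 0.20 and 0.21). These 9 genes all fell, with log2 fold changes between -2.63 and -1.03. Socs2, with its high control mouse 3, had no close match: Lifr, Keg1 and Hsd17b6 were nearest, at 0.56, 0.57 and 0.62. Lifr encodes the receptor of leukaemia inhibitory factor. It fell from 412 ± 141 to 47.0 ± 6.6 CPM. Igfbp1 was nearest to the immediate early gene Egr1, then to Apom and Rab5if (0.26, 0.45 and 0.51), and none of these 3 passed the test, although Apom and Rab5if passed with no filter on low counts and with the replicate number as a block.

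Promoter sequences show where factors of this pathway could meet the axis genes. RefSeq promoter sequences on GRCm38.p6 were at hand for 9 of the 10 genes, with 15 transcription starts; Socs2 had no entry. In the 250 bases before each start, both strands were searched for TTCNNNGAA, the consensus of STAT5 and STAT3, for CAAAACA, the core of the insulin response element, and for TTGCNNAA, which C/EBP factors bind. The STAT motif was in 2 of the 15 promoters, both of Igfals, and in 7.02% of 32851 promoters. The insulin response core was in 1, that of Igfbp1, and in 5.56% of all promoters, and the C/EBP motif in 0 of 15 and in 9.56% of all. By gene, the STAT motif was in 1 of 9 axis genes, beside 8.13% of 27025 genes. The most downstream Igfals start had no STAT match. The sequences below are on the + strand, in lower case with the motif in capitals. They are shown because Igfals fell most among the STAT5 targets with an entry and Igfbp1 is the insulin-repressed member. The first is the whole promoter window of the upstream Igfals start (chr17:24877594-24877843), with its match from 236 to 228 bases before that start. The second is the surrounding of the match 58 to 50 bases before another Igfals start (chr17:24878163-24878191), and the third that of the match 108 to 102 bases before the Igfbp1 start (chr11:7197669-7197695). A match is a description of the letters only.
Igfals upstream promoter: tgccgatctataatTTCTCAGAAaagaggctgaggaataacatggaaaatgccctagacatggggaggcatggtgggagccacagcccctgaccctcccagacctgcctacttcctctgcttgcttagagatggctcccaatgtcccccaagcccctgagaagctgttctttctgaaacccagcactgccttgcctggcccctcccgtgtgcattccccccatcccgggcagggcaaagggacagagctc
Igfals second match: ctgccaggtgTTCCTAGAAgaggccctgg
Igfbp1 match: agctcacaagCAAAACAaacttatttt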

How the data were processed

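The values used are the unnormalized counts that the authors deposited, 1 whole number per sample for each of 56691 genes. The submitters' processing notes name cutadapt 1.9.1, HISAT2 2.2.1, HTSeq 0.6.1, DESeq2 1.34.0 and GRCm39; how reads that fit several genes were treated and the strand setting of the counting are not given in the sources used here. Gene models of GRCm39 were not used here, so levels were not divided by gene length and do not rank genes against each other. In R 4.3.3, edgeR 4.0.16 filtered genes (filterByExpr), scaled counts (TMM) and tested LPS against control in its quasi-likelihood model, with group as sole term. P-values were adjusted by Benjamini-Hochberg across all 13683 tested genes, and an adjusted p below 0.05 made a call. The SE was derived from the F statistic, and values after ± are SDs over mice. The named genes are the 10 axis genes, a fixed set of signalling and IGF genes, the 3 called genes with the smallest p in each direction of each pathway list, the marker of each cell type with the most CPM over all mice, whatever its length and the nearest genes in pattern; genes added later are marked as such. Likeness used log2 of CPM plus 0.5. The axis genes and the lists were chosen with earlier results of these data known. Alternatives were DESeq2 1.42.0, other scaling, filters and thresholds, mitochondrial genes left out, the replicate number as a block, each mouse left out, and LPS mice 2 and 3 summed. Methods were tested on simulated counts, in which DESeq2 passed a larger share of unchanged genes than edgeR. No p-value was computed for a list.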

Additional observations from a re-analysis of the deposited data

Results flagged for a closer look

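In 8 of 84 sets of 4 control values, the gap between an extreme mouse and the next took a larger part of the whole range than Dixon's 95% limit for 4 samples allows. Chance gives about 1 in 20 for sets not chosen by their values, but 28 of the 84 were of genes named for a pattern like that of an axis gene or after their values were seen, of which 1 was past the limit, as were 7 of the other 56. Many of these 56 were themselves chosen for a difference between the groups. Onecut1 and Bcl6 were not among the 8. Control mouse 3 was apart in 4 of the 8, of which Foxa1 was named after it was seen to be high in that mouse. It was highest for Socs2, where the gap took 0.946 of the range (91.2 CPM, next 22.1 CPM), for Cish at 0.994 (42.7 CPM, next 1.01 CPM) and for Foxa1 at 0.922 (48.2 CPM, next 16.0 CPM), and lowest for Pdk4 at 0.832 (6.35 CPM, next 21.3 CPM). Control mouse 1 was highest for Igfbp6 at 0.858 (7.21 CPM, next 2.02 CPM) and for Stc2 at 0.946 (1.63 CPM, next 0.145 CPM). In control mouse 2, Moxd1 and Pappa2 reached 1 because that mouse had 1 count and the other control mice 0, which is within counting error. The genes were not independent, since the same 4 mice gave all values, and the origin of these gaps was not tested.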

How the results depend on the processing

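Ghr, Stat5b, Socs2, Igf1, Igfals and Igfbp2 passed in the same direction under each of the 18 alternatives run. The number of axis genes called was 9 by the main test and between 6 and 9 under the alternatives. Over all genes, 3597 were called, against 2084 at an adjusted p below 0.01 and 2068 with an absolute log2 fold change above 1. Stricter rules call fewer by construction. Without each mouse 2447 to 3774 were called, with 1290 to 1906 higher and 1146 to 1868 lower. With LPS mice 2 and 3 summed, 2543 were called, 1348 higher and 1195 lower. Stat5a did not pass at an adjusted p below 0.01 or with the fold change rule (-0.71 in both) or with LPS mice 2 and 3 summed (-0.73), and ranged from -0.82 to -0.63 without each mouse. Igfbp3 did not pass at an adjusted p below 0.01 (-1.07). Igfbp4 did not pass with total counts (0.41), under both stricter rules (0.54) or with LPS mice 2 and 3 summed (0.47), and ranged from 0.47 to 0.69 without each mouse. Igfbp1 was -0.055 with total counts and -0.19 to 0.59 without each mouse. Without each mouse, Jak2 ranged from -0.17 to 0.052, Cish from -2.64 to 1.36, Egr1 from -0.45 to 0.25, Dcn from -0.34 to 0.043 and Spp1 from -0.17 to 0.55. Spp1, without a call otherwise, passed at 0.55 without control mouse 1, the highest control mouse in its list, and was -0.040 with total counts. Apart from the number of mice or genes left, the cause of these changes was not tested.

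Same-numbered mice are different animals, and the labels give no pairing. Their deviations from the group means correlated at 0.20, -0.06 and 0.08 across genes. The 0.20, of control mouse 1 with LPS mouse 1, was the highest over all pairs of a control and an LPS mouse, and the next was 0.11. Whether mice of the same number shared a batch was not tested. With the replicate number as a block, in which control mouse 4 adds nothing to the comparison, 3234 genes were called, Stat5a was -0.61 and Igfbp4 0.52 without a call, Igfbp1 was 0.85 with a call (adjusted p = 0.0431, the lowest over its alternatives, which reached 0.994), and the values of Jak2 and Egr1, never called, were 0.067 and 0.46.

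For the 71 other named and tested genes, 1160 of 1271 results kept direction and side of the threshold, 86 lost their call, 10 gained one and 15 turned sign. Low counts limit the precision of genes such as Moxd1, Cyp2a4 and Igfbp6.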
